A study of Mus musculus with 16 samples.

Results

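The RANK, CD40, lymphotoxin and NF-kB axis of thymic epithelial cells is described here through 10 genes, taken by a list of names that uses no measured value but was drawn up with earlier results of these data known, of 43432 genes in the count tables. They are the receptor genes Tnfrsf11a, Cd40 and Ltbr, the decoy receptor gene Tnfrsf11b, the ligand gene Lta, the kinase gene Map3k14 and the subunit genes Nfkb2, Relb, Nfkb1 and Rel. All 10 passed the filter on low counts, as did 19617 genes in all. Polyadenylated RNA was sequenced from 4 sorted mouse thymic populations with 4 libraries each, and the study compared cells by their Aire history and by their MHC class II level. All populations came from the strain C57BL6.Aire-CreERT2.Ai14, of mixed sex and 5 to 6 weeks old, in which tamoxifen switches on a Cre recombinase made under the control of Aire and the Ai14 reporter then marks the cell and its progeny with a red fluorescent protein (RFP). All mice received 2 mg tamoxifen and cells were taken 7 days later, so no population is untreated, and each library pools the thymi of 12 mice. The gate took live, CD45-negative, EPCAM-positive cells and split them into RFP+ MHCIIlo, RFP- MHCIIlo, RFP+ MHCIIhi and RFP- MHCIIhi. It held no marker against cortical epithelium, and an RFP- cell may have made Aire before or after the pulse or escaped labelling.

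In the medulla of the thymus these receptors sit on epithelial cells, while developing T cells and innate lymphoid cells carry most of the ligands. RANK, CD40 and the lymphotoxin beta receptor stabilise the NF-kB inducing kinase, which drives cleavage of the Nfkb2 precursor so that it can enter the nucleus with RelB (the non-canonical branch), and they also free dimers of the Nfkb1 product, c-Rel and RelA from their inhibitors (the canonical branch). Mice that lack RelB, the kinase, or RANK together with CD40 fail to form a normal medulla with Aire-expressing cells. Osteoprotegerin, the product of Tnfrsf11b, is a soluble decoy that binds the RANK ligand.

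Promoter sequence is shown for 3 members whose windows differ: Nfkb2 and Rel, whose windows hold the kB consensus, a binding motif of NF-kB dimers, and Lta, whose window holds none. The windows run from 250 bases before to 50 bases after each transcription start, are given 5′ to 3′ along the gene, and come from RefSeq on GRCm38.p6. Capitals mark every match to the kB consensus on either strand, with overlapping matches merged into 1 run of capitals but counted apart.

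Nfkb2, first start (chr19:46304487-46304786, plus strand): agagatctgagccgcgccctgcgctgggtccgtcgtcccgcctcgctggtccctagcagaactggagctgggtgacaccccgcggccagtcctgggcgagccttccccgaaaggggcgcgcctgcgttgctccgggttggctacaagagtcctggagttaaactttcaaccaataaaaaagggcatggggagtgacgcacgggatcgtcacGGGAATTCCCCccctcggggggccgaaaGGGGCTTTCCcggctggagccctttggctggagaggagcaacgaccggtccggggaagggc

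Nfkb2, second start (chr19:46305445-46305744, plus strand): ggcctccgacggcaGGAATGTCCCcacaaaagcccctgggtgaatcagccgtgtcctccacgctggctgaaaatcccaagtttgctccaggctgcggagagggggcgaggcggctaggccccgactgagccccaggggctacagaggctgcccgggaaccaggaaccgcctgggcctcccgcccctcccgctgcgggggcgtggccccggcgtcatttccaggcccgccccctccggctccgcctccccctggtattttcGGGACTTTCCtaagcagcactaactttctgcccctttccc

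Rel (chr11:23770920-23771219, minus strand): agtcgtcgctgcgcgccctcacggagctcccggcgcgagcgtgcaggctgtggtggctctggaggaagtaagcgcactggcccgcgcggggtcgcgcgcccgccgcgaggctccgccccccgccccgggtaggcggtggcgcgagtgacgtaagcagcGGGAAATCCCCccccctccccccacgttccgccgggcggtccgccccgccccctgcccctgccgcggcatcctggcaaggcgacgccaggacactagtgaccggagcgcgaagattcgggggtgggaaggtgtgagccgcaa

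Lta (chr17:35205302-35205601, minus strand): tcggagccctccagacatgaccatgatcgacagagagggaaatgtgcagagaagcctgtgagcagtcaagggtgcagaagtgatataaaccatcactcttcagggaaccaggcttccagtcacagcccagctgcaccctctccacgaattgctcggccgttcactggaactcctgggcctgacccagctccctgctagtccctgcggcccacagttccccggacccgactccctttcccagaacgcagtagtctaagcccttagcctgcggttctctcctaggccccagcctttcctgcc

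The first Nfkb2 window holds 3 matches, the second 2, and the window of another Nfkb2 start (not printed) 1, which is the same GGGACTTTCC that stands near the end of the second window. Rel holds 2 overlapping matches in 1 run. In all, 6 members have a window in the table, with 8 windows between them, and 4 of the 8 hold a match. The windows of Tnfrsf11a, Ltbr, Map3k14 and Lta held none. Over all 32851 windows of the table, 1480 (4.51%) hold at least 1 match and 182 (0.554%) hold 2 or more. A match is a run of letters and not a measured binding site.

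Between 7929533 and 19457905 reads were counted per library. For RFP+ MHCIIlo only 19400 to 20500 cells went into a library, against at least 80500 for any other library. RFP+ MHCIIlo libraries were also less alike: their mean correlation with the others of their population was 0.9525 to 0.9627, against at least 0.9761 elsewhere (log2 CPM over tested genes). RFP+ MHCIIlo replicate 1 stood apart on the first principal component (-63.4, against -40 to -36.1 for its other replicates) and replicate 4 on the fourth (-24.4, against 7.14 to 12.8). Both are kept, and values or counts without them are given where they change a member's call or the count of the pathway list. Epithelial markers were high in all 4 populations, with 7 genes that summed to 2513 to 2791 CPM (the read count scaled to a common, TMM-corrected library total) in RFP+ MHCIIlo, 3023 to 3600 in RFP- MHCIIlo, 1891 to 2134 in RFP+ MHCIIhi and 1433 to 1656 in RFP- MHCIIhi. By gene, 5 of the 7 were higher and 2 lower in RFP+ than in RFP- MHCIIlo (median log2 0.39), although the sum was lower. The lower ones were Krt5 (mean 469 against 1340 CPM) and Krt14 (97.3 against 437 CPM). The 6 cortical epithelial markers summed to 51.7 to 109 CPM in RFP+ MHCIIlo, 201 to 295 in RFP- MHCIIlo, 192 to 310.1 in RFP+ MHCIIhi and 721 to 1275 in RFP- MHCIIhi. The RFP- MHCIIhi libraries thus carried the most of them although the study calls all 4 medullary. No marker list for another cell type had a gene at 0 in all libraries of a population.

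The clearest pattern among the 10 genes followed MHC class II. Cd40, Lta, Nfkb2, Relb, Rel and Tnfrsf11a were all lower in MHCIIlo than in MHCIIhi cells, in the RFP+ and in the RFP- pair, with differences that ran from 1.64-fold for Tnfrsf11a to 33.9-fold for Lta. Ltbr went the other way in both pairs. Within a gate, RFP+ cells had more Rel, Tnfrsf11b and Lta than RFP- cells (for Lta in MHCIIlo with the limit given with its values), while Nfkb2, Relb and Tnfrsf11a passed the test in neither gate.

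Counts were as follows at an adjusted p under 0.05 (edgeR quasi-likelihood test, adjusted over all 19617 genes). In RFP+ MHCIIlo against RFP+ MHCIIhi, 1 member was higher and 8 were lower, where 55.6% of all tested genes differed (27.5% higher and 28.1% lower). In RFP- MHCIIlo against RFP- MHCIIhi, 1 was higher and 7 were lower, where 69.1% differed (33.5% higher and 35.6% lower). The median log2 difference of the members was -0.90 in the RFP+ pair and -0.84 in the RFP- pair, beside 0.0066 and -0.0041 over all tested genes. In RFP+ MHCIIlo against RFP- MHCIIlo, 3 members were higher and 1 was lower, where 51.6% of genes differed (28.9% higher and 22.7% lower), a share of members below the background. In RFP+ MHCIIhi against RFP- MHCIIhi, 5 were higher and 0 lower, where 45.0% differed (23.8% higher and 21.2% lower). The median was 0.03 in the MHCIIlo gate and 0.23 in the MHCIIhi gate, beside 0.07 and -0.02 over all genes. Across the diagonal pairs, 2 members were higher and 7 lower in RFP+ MHCIIlo against RFP- MHCIIhi (68.5% of genes differed, 33.6% higher and 34.9% lower), and 8 were higher and 1 lower in RFP+ MHCIIhi against RFP- MHCIIlo (65.9% differed, 35.3% higher and 30.6% lower). These comparisons draw on the same 16 libraries. Nothing beyond the sorted pools is given for the replicates, so each p measures the spread between pools of 12 thymi.

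**Figure D1:**
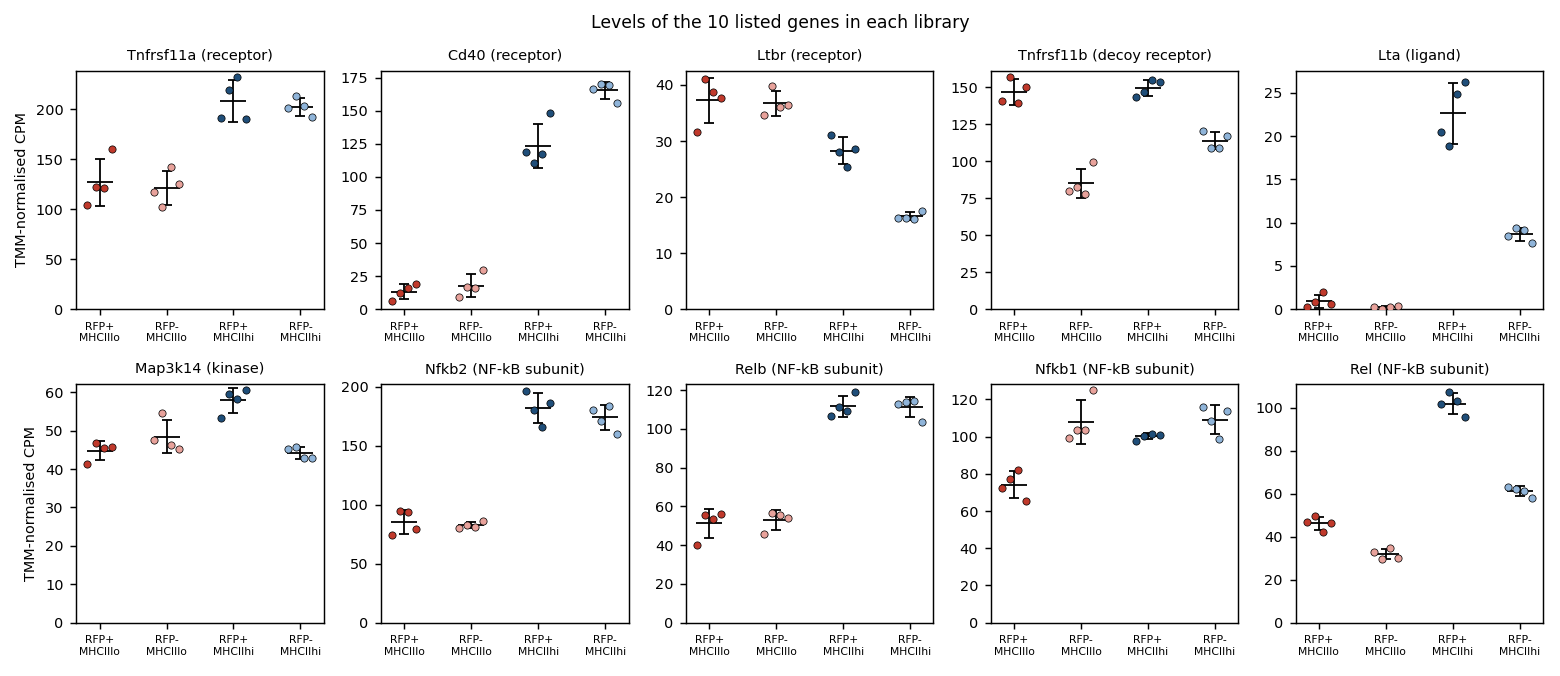
Level of each of the 10 genes in each library, as TMM-normalised CPM, in RFP+ MHCIIlo, RFP- MHCIIlo, RFP+ MHCIIhi and RFP- MHCIIhi. Points are libraries, the line is the mean and bars are the SD of 4 libraries. Cd40, Lta, Nfkb2, Relb, Rel and Tnfrsf11a sit lower in both MHCIIlo populations than in both MHCIIhi populations, and Ltbr sits higher.

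**Figure D2:**
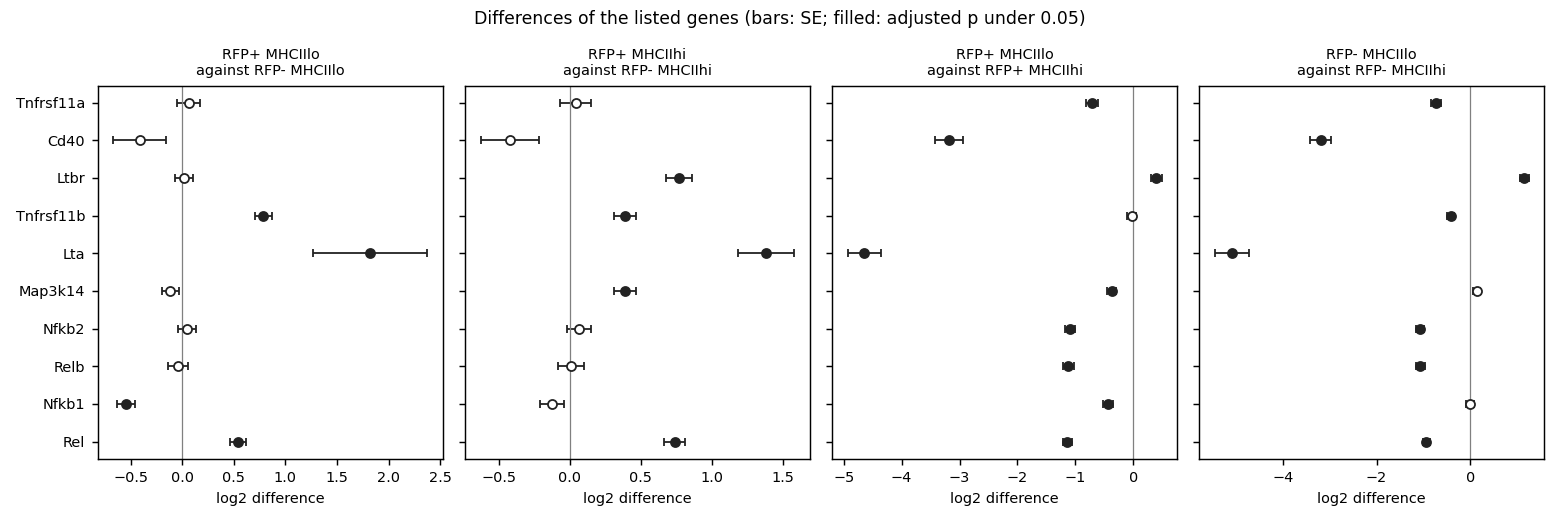
The log2 difference of each gene in the 4 comparisons (first population over second), with SE bars. Filled points have an adjusted p under 0.05 and open points do not. Each panel has its own scale. Lta and Cd40 have the widest differences between the MHC class II gates.

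The plot of levels by library shows every value behind the sentences that follow, and the plot of differences shows the same genes as log2 values with their errors. Because these are bulk libraries, a lower level can mean less RNA per cell or fewer cells that express the gene, and the data cannot tell these apart.

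Tnfrsf11a (ENSMUSG00000026321, chromosome 1, 105780718 to 105847981, GRCm38 with the GENCODE M21 annotation, protein coding) encodes RANK, the receptor whose ligand drives maturation of medullary epithelium. Its level was 105, 122, 121 and 159.8 CPM in RFP+ MHCIIlo and 117, 102, 142 and 125 CPM in RFP- MHCIIlo (127 ± 23.4 and 121 ± 16.7, SD, n = 4 each). In RFP+ MHCIIhi it was 191, 219.7, 232 and 190.0 CPM, and in RFP- MHCIIhi 201, 213, 203 and 192 CPM (208 ± 21.0 and 202 ± 8.58). All 8 MHCIIhi libraries lay above all 8 MHCIIlo libraries, and RFP+ and RFP- libraries overlapped within each gate. Tnfrsf11a was 1.64-fold lower in RFP+ MHCIIlo than in RFP+ MHCIIhi (log2 -0.71, SE 0.11, adjusted p = 8.3e-06) and 1.67-fold lower in RFP- MHCIIlo than in RFP- MHCIIhi (-0.74, SE 0.11, adjusted p = 3.2e-06). RFP made no difference that passed, with a log2 of 0.07 in MHCIIlo (95% interval -0.17 to 0.30, adjusted p = 0.65) and 0.04 in MHCIIhi (-0.18 to 0.27, adjusted p = 0.78). These intervals leave room for a change of up to about 0.30 on the log2 scale.

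Cd40 (ENSMUSG00000017652, chromosome 2, 165055627 to 165072948) encodes the receptor for the CD40 ligand of activated T cells, and its expression separated the MHC class II gates more than that of any other receptor here. Levels were 6.36, 12.4, 15.9 and 18.9 CPM in RFP+ MHCIIlo and 9.02, 17, 16.1 and 29.4 CPM in RFP- MHCIIlo (13.4 ± 5.37 and 17.9 ± 8.45). They were 119, 110.3, 117 and 148 CPM in RFP+ MHCIIhi and 167, 170.3, 169 and 156 CPM in RFP- MHCIIhi (123 ± 16.7 and 166 ± 6.47). All MHCIIhi libraries lay far above all MHCIIlo libraries. Cd40 was 9.09-fold lower in RFP+ MHCIIlo than in RFP+ MHCIIhi (log2 -3.18, SE 0.24, adjusted p = 1.4e-10) and 9.17-fold lower in RFP- MHCIIlo than in RFP- MHCIIhi (-3.20, SE 0.23, adjusted p = 2.4e-11).

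Whether Cd40 differed by RFP depended on the analysis. In MHCIIhi, all 4 RFP+ libraries lay below all 4 RFP- libraries, at 1.34-fold, but the test over all 16 libraries missed its threshold (log2 -0.42, SE 0.20, 95% interval -0.85 to -0.0016, adjusted p = 0.096; 8.2e-05 to 0.25 over the alternatives). It passed in 8 of 23 alternatives and kept its direction in all 23. The fit with replicate numbers as a block was among the 8, and its values are given at the end. Among those that passed, the adjusted p was 8.2e-05 when only the 8 MHCIIhi libraries were fitted, 0.0014 without a filter on low counts, 0.013 with limma-voom and 0.030 without RFP+ MHCIIlo replicates 1 and 4, while single libraries left out gave 0.041 (RFP+ MHCIIlo replicate 1), 0.043 (RFP- MHCIIlo replicate 4) and 0.049 (RFP- MHCIIlo replicate 1). In MHCIIlo the libraries overlapped (log2 -0.41, 95% interval -0.94 to 0.11, adjusted p = 0.18), and single libraries moved it widely. It was -0.62 (adjusted p = 0.027) without RFP- MHCIIlo replicate 1, the lowest of its population, -0.07 (adjusted p = 0.83) without RFP- MHCIIlo replicate 4, the highest, -0.18 (adjusted p = 0.52) without RFP+ MHCIIlo replicate 1 and -0.64 (adjusted p = 0.050) without RFP+ MHCIIlo replicate 4. It also passed without a filter on low counts (-0.42, adjusted p = 0.0071).

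Ltbr (ENSMUSG00000030339, chromosome 6, 125306571 to 125313885) encodes the lymphotoxin beta receptor and, among the 3 receptor genes of the 10, was the 1 that was higher in MHCIIlo cells. It stood at 31.6, 41.0, 38.8 and 37.7 CPM in RFP+ MHCIIlo and at 34.6, 39.9, 36.1 and 36.5 CPM in RFP- MHCIIlo (37.3 ± 4.02 and 36.8 ± 2.24). In RFP+ MHCIIhi it stood at 31.1, 28.1, 25.4 and 28.6 CPM and in RFP- MHCIIhi at 16.3, 16.2, 16.1 and 17.6 CPM (28.3 ± 2.36 and 16.6 ± 0.696). The RFP- MHCIIhi libraries lay below all 12 others, and the MHCIIlo populations overlapped each other. Ltbr was 1.32-fold higher in RFP+ MHCIIlo than in RFP+ MHCIIhi (log2 0.40, SE 0.09, adjusted p = 7.3e-04) and 2.22-fold higher in RFP- MHCIIlo than in RFP- MHCIIhi (1.15, SE 0.09, adjusted p = 1.5e-10). In MHCIIhi it was 1.70-fold higher in RFP+ than in RFP- cells (log2 0.77, SE 0.09, adjusted p = 3.1e-07), and in MHCIIlo the log2 difference was 0.02 (95% interval -0.17 to 0.21, adjusted p = 0.89). The RFP difference itself differed between the gates (MHCIIlo minus MHCIIhi, log2 -0.75, SE 0.13, adjusted p = 8.6e-05).

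Tnfrsf11b (ENSMUSG00000063727, chromosome 15, 54250619 to 54278484), the gene of osteoprotegerin, followed RFP more than MHC class II. RFP+ MHCIIlo libraries held 140.3, 157, 139 and 150.3 CPM, whereas those of RFP- MHCIIlo held 79.8, 82.6, 78.0 and 99.4 CPM (147 ± 8.52 and 84.9 ± 9.84). RFP+ MHCIIhi libraries held 143, 146, 154 and 153 CPM, whereas those of RFP- MHCIIhi held 121, 109, 109 and 117 CPM (149 ± 5.43 and 114 ± 5.87). All 8 RFP+ libraries lay above all 8 RFP- libraries. Tnfrsf11b was 1.73-fold higher in RFP+ than in RFP- cells in MHCIIlo (log2 0.79, SE 0.08, adjusted p = 1.8e-08) and 1.31-fold higher in MHCIIhi (0.39, SE 0.08, adjusted p = 2.7e-04), and the difference between those 2 values passed (0.40, SE 0.11, adjusted p = 0.0085). It was 1.34-fold lower in RFP- MHCIIlo than in RFP- MHCIIhi (-0.42, SE 0.08, adjusted p = 6.4e-05), while the RFP+ pair gave -0.03 (95% interval -0.19 to 0.14, adjusted p = 0.80).

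Set per kilobase of merged exon (2818 bases for Tnfrsf11b and 5985 for Tnfrsf11a), the decoy gene exceeded the receptor gene in every library. This order depends on those lengths, and which transcripts the cells made was not tested. In plain CPM the mean of Tnfrsf11a was the higher one in all populations but RFP+ MHCIIlo. The ratio of Tnfrsf11b to Tnfrsf11a ran from 2.00 to 2.85 in RFP+ MHCIIlo (median 2.58), 1.17 to 1.72 in RFP- MHCIIlo (median 1.57), 1.41 to 1.71 in RFP+ MHCIIhi (median 1.5) and 1.09 to 1.29 in RFP- MHCIIhi (median 1.21). RFP+ MHCIIlo libraries had the highest ratios, with no overlap with the other populations. These are ratios of RNA levels and not of protein.

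Lta (ENSMUSG00000024402, chromosome 17, 35203165 to 35205351) encodes lymphotoxin alpha, a ligand better known from lymphocytes. It was counted in every library, but with only 2 to 19 reads per library in RFP+ MHCIIlo and 1 to 5 in RFP- MHCIIlo, against 263 to 455 in RFP+ MHCIIhi and 120 to 184 in RFP- MHCIIhi. Its levels were 0.216, 0.852, 1.97 and 0.579 CPM in RFP+ MHCIIlo and 0.212, 0.0847, 0.255 and 0.429 CPM in RFP- MHCIIlo. In MHCIIhi they were 20.5, 18.9, 24.9 and 26.3 CPM in RFP+ cells and 8.52, 9.34, 9.19 and 7.68 CPM in RFP- cells (22.6 ± 3.51 and 8.68 ± 0.758). The MHCIIhi libraries lay far above the MHCIIlo libraries, and within MHCIIhi the RFP+ libraries lay above the RFP- libraries with no overlap.

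Lta was 25.0-fold lower in RFP+ MHCIIlo than in RFP+ MHCIIhi (log2 -4.65, SE 0.28, adjusted p = 4.0e-12) and 33.9-fold lower in RFP- MHCIIlo than in RFP- MHCIIhi (-5.08, SE 0.37, adjusted p = 1.9e-11). It was 2.61-fold higher in RFP+ than in RFP- MHCIIhi cells (1.38, SE 0.20, adjusted p = 4.0e-06). The RFP difference in MHCIIlo was 1.82 (SE 0.55, adjusted p = 0.0082), between libraries that overlapped. It rested on RFP+ MHCIIlo replicate 3, without which it was 1.08 (adjusted p = 0.10), while the limma-voom value fell short of the threshold (1.5, adjusted p = 0.088; 2.3e-04 to 0.10 over the alternatives).

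Tnf and Ltb lie next to Lta on chromosome 17 (35199381 to 35202007 and 35194439 to 35196320). Tnf, another ligand of the same superfamily, averaged 6.62 ± 1.33 CPM in RFP+ MHCIIlo, 2.60 ± 0.799 in RFP- MHCIIlo, 46.7 ± 5.60 in RFP+ MHCIIhi and 14.2 ± 2.70 in RFP- MHCIIhi. It was 3.32-fold higher in RFP+ than in RFP- MHCIIhi cells (log2 1.73, SE 0.15, adjusted p = 1.7e-09). Ltb, which encodes the partner of lymphotoxin alpha in the ligand of the lymphotoxin beta receptor and is named after its values were seen, did not share the order of Lta: it averaged 3.96 ± 1.22, 2.69 ± 0.553, 3.37 ± 0.335 and 6.78 ± 1.41 CPM in the same populations. Ltb was lower in RFP+ than in RFP- MHCIIhi cells (log2 -1.01, SE 0.21, adjusted p = 4.3e-04).

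**Figure D3:**
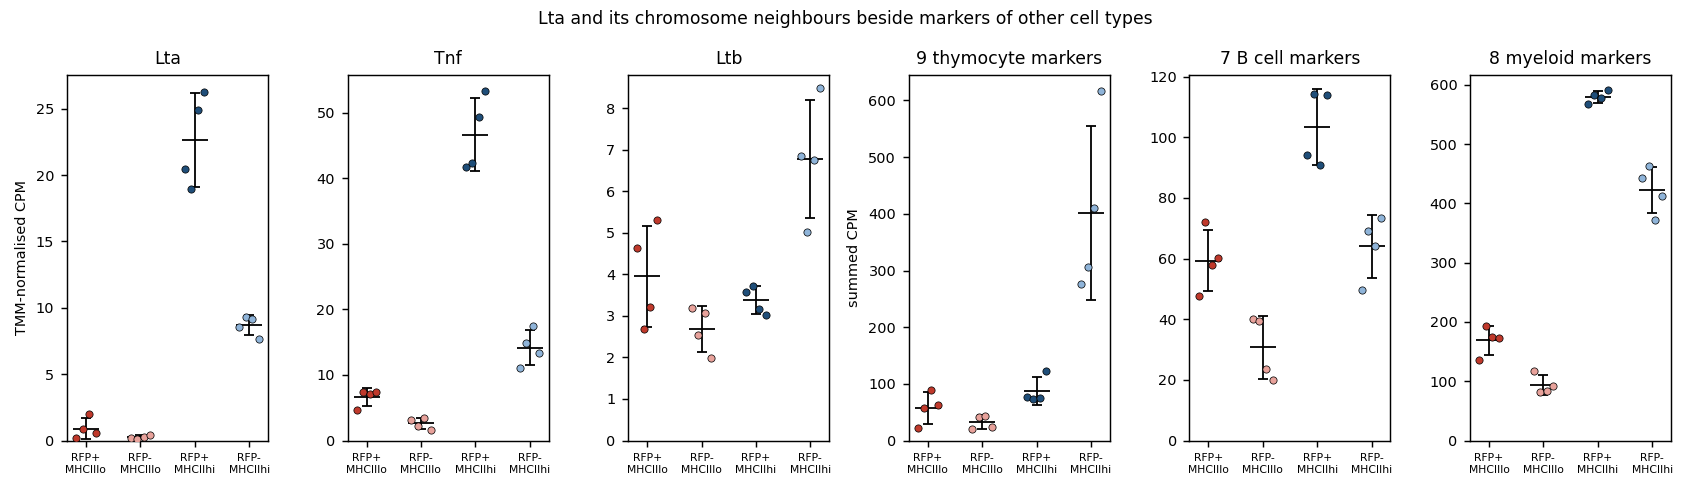
CPM of Lta, Tnf and Ltb and the summed CPM of the thymocyte, B cell and myeloid markers in each library, with mean and SD of 4 libraries. Lta and Tnf are highest in RFP+ MHCIIhi, where thymocyte markers sum to 73.2 to 123 CPM, and Ltb and the thymocyte markers (277 to 616 CPM) are highest in RFP- MHCIIhi.

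Markers of blood cells moved between the same populations, and the plot of Lta and its neighbours sets them side by side. The 9 thymocyte markers summed to 73.2 to 123 CPM in RFP+ MHCIIhi and 277 to 616 CPM in RFP- MHCIIhi, the opposite of the order of Lta and the order of Ltb, and all 9 were lower in RFP+ MHCIIhi by the test. The 7 B cell markers summed to 90.9 to 114 CPM in RFP+ MHCIIhi and 49.5 to 73.5 CPM in RFP- MHCIIhi, but by gene 2 were higher, 1 was lower and 4 did not pass (median log2 -0.03). The 8 myeloid markers summed to 568 to 592 CPM in RFP+ MHCIIhi and 373 to 463 CPM in RFP- MHCIIhi, and the 4 innate lymphoid markers to 45.2 to 49.1 CPM and 29.6 to 33.2 CPM. The myeloid sum was mostly Lyz2 (525 ± 11.0 CPM in RFP+ MHCIIhi and 371 ± 37.7 in RFP- MHCIIhi), and by gene 2 of the 8 were higher, 1 was lower and 5 did not pass (median log2 -0.23). In RFP+ MHCIIlo the thymocyte, B cell, myeloid and innate lymphoid sums were 21.7 to 89.5, 47.7 to 71.9, 135 to 194 and 26.6 to 30.3 CPM. In RFP- MHCIIlo they were 20.4 to 43.3, 20.1 to 40.0, 81.3 to 117 and 14 to 14.5 CPM. Ptprc, the gene of the CD45 that was gated out, ran from 32.3 to 45.2, 17.7 to 23.5, 19.3 to 26.6 and 42.1 to 88.2 CPM in RFP+ MHCIIlo, RFP- MHCIIlo, RFP+ MHCIIhi and RFP- MHCIIhi. Mesenchymal markers summed to 53.8 to 170.3, 426 to 965, 119 to 138 and 153 to 159 CPM, and endothelial markers to 36.8 to 52.9, 50.3 to 82.7, 25.3 to 29.4 and 24.2 to 27.4 CPM, in that order of populations. Tek made up most of the endothelial sum in RFP+ MHCIIlo (36.3 ± 8.48 CPM, against 13.6 ± 1.55 CPM in RFP+ MHCIIhi), and by gene 1 of the 5 endothelial markers was higher and 2 were lower in RFP+ MHCIIlo against RFP+ MHCIIhi (median log2 -0.76). The part of these cells, and of the cortical markers, in the levels of Cd40, Lta and the other members was not tested.

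Map3k14 (ENSMUSG00000020941, chromosome 11, 103219762 to 103267472) encodes the NF-kB inducing kinase and had the narrowest span of population means among the 10. Levels were 41.3, 46.7, 45.4 and 45.8 CPM in RFP+ MHCIIlo and 47.6, 54.6, 46.2 and 45.3 CPM in RFP- MHCIIlo (44.8 ± 2.39 and 48.5 ± 4.22). They were 53.2, 59.6, 58.1 and 60.7 CPM in RFP+ MHCIIhi and 45.1, 45.7, 43.0 and 42.9 CPM in RFP- MHCIIhi (57.9 ± 3.28 and 44.2 ± 1.45). RFP+ MHCIIhi had the highest mean, apart from RFP- MHCIIhi and RFP+ MHCIIlo but overlapping 1 RFP- MHCIIlo library, and the other populations overlapped. Map3k14 was 1.31-fold higher in RFP+ than in RFP- MHCIIhi cells (log2 0.39, SE 0.08, adjusted p = 1.7e-04) and 1.29-fold lower in RFP+ MHCIIlo than in RFP+ MHCIIhi (-0.37, SE 0.08, adjusted p = 3.0e-04). The RFP difference in MHCIIlo was -0.11 (95% interval -0.28 to 0.05, adjusted p = 0.24), and the gates differed in it (-0.50, SE 0.11, adjusted p = 9.5e-04). The kinase gene shares 135 exon bases on the same strand with 1700028N14Rik, whose reads in that stretch may not be separable.

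Nfkb2 (ENSMUSG00000025225, chromosome 19, 46304320 to 46312385) encodes the precursor that the kinase acts on, and its windows with the kB consensus are printed above. It was at 74.1, 94.8, 93.4 and 79.0 CPM in RFP+ MHCIIlo and at 80.5, 83.0, 81.1 and 85.9 CPM in RFP- MHCIIlo (85.3 ± 10.4 and 82.6 ± 2.41). The MHCIIhi libraries were at 196, 180.5, 166 and 186 CPM in RFP+ cells and at 181, 171, 184 and 160.3 CPM in RFP- cells (182 ± 12.8 and 174 ± 10.6). Every MHCIIhi library lay above every MHCIIlo library, and RFP did not separate libraries in either gate. Nfkb2 was 2.14-fold lower in RFP+ MHCIIlo than in RFP+ MHCIIhi (log2 -1.10, SE 0.08, adjusted p = 1.7e-10) and 2.11-fold lower in RFP- MHCIIlo than in RFP- MHCIIhi (-1.07, SE 0.08, adjusted p = 8.2e-11). The RFP differences were 0.05 (95% interval -0.13 to 0.22, adjusted p = 0.68) in MHCIIlo and 0.07 (-0.10 to 0.24, adjusted p = 0.54) in MHCIIhi. Nfkb2 shares 299 exon bases with Psd and 531 with AC114539.1 on the opposite strand, out of 4584, and whether counting used the strand is not given in the sources used here.

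Relb (ENSMUSG00000002983, chromosome 7, 19606217 to 19629438) encodes the partner of processed Nfkb2 product, and it had the same step between the MHC class II gates. Levels were 40.2, 55.4, 53.5 and 56.3 CPM in RFP+ MHCIIlo and 45.5, 56.4, 55.8 and 53.8 CPM in RFP- MHCIIlo (51.3 ± 7.50 and 52.9 ± 5.02). They were 107, 111, 109 and 119 CPM in RFP+ MHCIIhi and 113, 114, 114 and 103 CPM in RFP- MHCIIhi (112 ± 5.43 and 111 ± 5.17). MHCIIhi libraries stood apart from MHCIIlo libraries with no overlap, and RFP+ and RFP- libraries were mixed. Relb was 2.17-fold lower in RFP+ MHCIIlo than in RFP+ MHCIIhi (log2 -1.12, SE 0.09, adjusted p = 7.6e-10) and 2.10-fold lower in RFP- MHCIIlo than in RFP- MHCIIhi (-1.07, SE 0.09, adjusted p = 5.8e-10). By RFP the differences were -0.04 (95% interval -0.24 to 0.16, adjusted p = 0.73) in MHCIIlo and 0.01 (-0.18 to 0.20, adjusted p = 0.95) in MHCIIhi.

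Nfkb1 (ENSMUSG00000028163, chromosome 3, 135584655 to 135691547), whose product is the precursor of the canonical branch, had a different order: RFP+ MHCIIlo was low and the other populations were close. Libraries of RFP+ MHCIIlo stood at 72.2, 77.4, 82.3 and 65.1 CPM, against 99.2, 103, 104 and 125 CPM in RFP- MHCIIlo (74.3 ± 7.36 and 108 ± 11.8). MHCIIhi libraries stood at 97.8, 100.2, 102 and 101 CPM in RFP+ cells and at 116, 108, 98.5 and 114 CPM in RFP- cells (100.2 ± 1.67 and 109 ± 7.77). No RFP+ MHCIIlo library reached the lowest value of another population. Nfkb1 was 1.45-fold lower in RFP+ than in RFP- MHCIIlo cells (log2 -0.54, SE 0.09, adjusted p = 1.4e-05) and 1.35-fold lower in RFP+ MHCIIlo than in RFP+ MHCIIhi (-0.43, SE 0.09, adjusted p = 1.8e-04). In MHCIIhi the RFP difference was -0.13 (95% interval -0.30 to 0.05, adjusted p = 0.24), and RFP- MHCIIlo against RFP- MHCIIhi gave -0.02 (adjusted p = 0.86). The gates differed in the RFP difference (-0.42, SE 0.12, adjusted p = 0.010), but not without RFP+ MHCIIlo replicates 1 and 4 (-0.31, adjusted p = 0.053; 0.0035 to 0.053 over the alternatives).

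Rel (ENSMUSG00000020275, chromosome 11, 23736847 to 23770970) encodes c-Rel, and all 4 populations differed from their neighbours in the order of levels. RFP+ MHCIIlo libraries had 46.8, 49.6, 42.3 and 46.2 CPM, against 33.0, 29.5, 34.6 and 30.1 CPM in RFP- MHCIIlo (46.2 ± 3.02 and 31.8 ± 2.42). RFP+ MHCIIhi libraries had 102, 107, 103 and 95.4 CPM, against 63.2, 62.1, 61.0 and 58.0 CPM in RFP- MHCIIhi (102 ± 4.87 and 61.1 ± 2.25). No 2 populations overlapped. Rel was 1.45-fold higher in RFP+ than in RFP- cells in MHCIIlo (log2 0.54, SE 0.08, adjusted p = 4.1e-06) and 1.67-fold higher in MHCIIhi (0.74, SE 0.07, adjusted p = 1.5e-08), and the difference between the gates did not pass (-0.20, 95% interval -0.42 to 0.03, adjusted p = 0.17). It was 2.20-fold lower in RFP+ MHCIIlo than in RFP+ MHCIIhi (-1.14, SE 0.08, adjusted p = 1.7e-11) and 1.92-fold lower in RFP- MHCIIlo than in RFP- MHCIIhi (-0.94, SE 0.08, adjusted p = 1.9e-10).

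Ranked by mean level, the order RFP+ MHCIIhi, RFP- MHCIIhi, RFP+ MHCIIlo, RFP- MHCIIlo held for Tnfrsf11a, Nfkb2, Lta and Rel. For Tnfrsf11a and Nfkb2 only the step between the gates passed, whereas each step passed for Rel and, with the limit given for its lowest step, for Lta. Relb had the same gate step (log2 1.07 between RFP- MHCIIhi and RFP- MHCIIlo, adjusted p = 5.8e-10), and Cd40 led in RFP- MHCIIhi. Ltbr led in RFP+ MHCIIlo, level with RFP- MHCIIlo, and Tnfrsf11b in RFP+ MHCIIhi, level with RFP+ MHCIIlo. Map3k14 led in RFP+ MHCIIhi (0.26 above RFP- MHCIIlo, adjusted p = 0.0053) and its 3 other populations did not differ from their neighbours. Nfkb1 led in RFP- MHCIIhi, and only its lowest step, to RFP+ MHCIIlo, passed (0.43, adjusted p = 1.8e-04).

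Per kilobase of exon, Tnfrsf11b had the highest mean level of the members in 3 populations, at 52.0 ± 3.02 CPM per kilobase in RFP+ MHCIIlo, 30.1 ± 3.49 in RFP- MHCIIlo and 53.0 ± 1.93 in RFP+ MHCIIhi. In RFP- MHCIIhi it was at 40.4 ± 2.08, where Cd40 had the highest mean at 48.6 ± 1.90. Lta had the lowest mean level in MHCIIlo cells, at 0.654 ± 0.547 in RFP+ and 0.177 ± 0.103 in RFP- cells. Ratios between the RNA levels of subunit genes differed between populations, and they are not ratios of protein. The per-kilobase ratio of Nfkb2 to Nfkb1 ran from 2.70 to 3.22 in RFP+ MHCIIlo, from 1.80 to 2.14 in RFP- MHCIIlo, from 4.29 to 5.28 in RFP+ MHCIIhi and from 3.70 to 4.91 in RFP- MHCIIhi. The ratio of Relb to Rel ran from 1.65 to 2.43 in RFP+ MHCIIlo, from 2.65 to 3.68 in RFP- MHCIIlo, from 2.00 to 2.40 in RFP+ MHCIIhi and from 3.43 to 3.60 in RFP- MHCIIhi. The first ratio was higher in both MHCIIhi populations than in either MHCIIlo population, and the second was lower in RFP+ than in RFP- cells of both gates with no overlap.

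**Figure D4:**
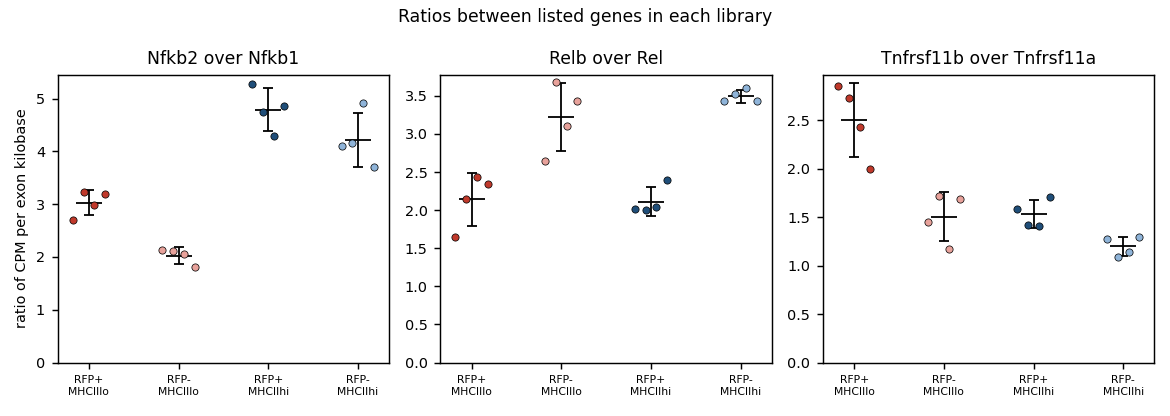
Ratios of CPM per exon kilobase in each library for Nfkb2 over Nfkb1, Relb over Rel and Tnfrsf11b over Tnfrsf11a, with mean and SD of 4 libraries. Relb over Rel is 1.65 to 2.43 in RFP+ libraries and 2.65 to 3.68 in RFP- libraries, while Nfkb2 over Nfkb1 splits by MHC class II.

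Members whose libraries did not overlap numbered 9 in RFP+ MHCIIlo against RFP+ MHCIIhi (47.0% of all tested genes), 8 in RFP- MHCIIlo against RFP- MHCIIhi (65.3%), 3 in RFP+ MHCIIlo against RFP- MHCIIlo (39.5%) and 6 in RFP+ MHCIIhi against RFP- MHCIIhi (50.0%). The diagonal pairs had 9 in RFP+ MHCIIlo against RFP- MHCIIhi (59.9%) and 8 in RFP+ MHCIIhi against RFP- MHCIIlo (61.5%). The difference between the gates in the effect of RFP passed for 4 members, 1 higher (Tnfrsf11b) and 3 lower (Ltbr, Map3k14 and Nfkb1), where 34.1% of all genes passed. Tnfrsf11a, Cd40, Nfkb2 and Relb gave -0.05 to 0.02 for it, each with an adjusted p of at least 0.80.

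Other genes had closely matching patterns over the 16 libraries, which share populations, so Pearson's r here describes mostly the 4 population levels. Among 11097 named genes whose mean reached 10 CPM in 1 or more populations, those most like Cd40 were Irf4 (r = 0.991), Rassf2 (0.991) and Ogfrl1 (0.990). Those most like Lta were Cd70 (0.991), Cd86 (0.988) and Prokr2 (0.988), and those most like Rel were Fam122b (0.985), Plcb4 (0.983) and Tnf (0.982). Relb came with Aebp2 (0.992), Gramd4 (0.990) and Apod (0.989), and Nfkb2 with Mcpt1 (0.986), Slc6a4 (0.985) and Prss29 (0.985). For Tnfrsf11a the closest were Lypd6 (0.966), Skint10 (0.963) and Serpinc1 (0.958), and for Tnfrsf11b Ttr (0.974), Mep1b (0.973) and Dnah9 (0.972). For Ltbr they were Fam53b (0.986), Plekhg3 (0.981) and Plekhg6 (0.981). Map3k14 had no partner above 0.931 (Ncoa2, then Jade2 at 0.897 and Plxnd1 at 0.896), and neither had Nfkb1 (Nol8 at 0.931, D16Ertd472e at 0.927 and Bin1 at 0.926).

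The rest of the pathway was read from a list of 29 genes, of which 28 were tested (the CD40 ligand gene Cd40lg was not). In RFP+ MHCIIlo against RFP+ MHCIIhi, 5 were higher and 15 lower, and in RFP- MHCIIlo against RFP- MHCIIhi 6 were higher and 15 lower, with medians of -0.41 and -0.26 beside those near 0 over all genes. In RFP+ against RFP- cells, 12 were higher and 6 lower in MHCIIlo and 14 higher and 3 lower in MHCIIhi, with medians of 0.20 and 0.37 beside 0.07 and -0.02 over all genes, of which 51.6% and 45.0% differed. Without RFP+ MHCIIlo replicates 1 and 4 the MHCIIlo counts were 11 higher and 4 lower: Tnfrsf14, Traf6, Birc2, Chuk and Ikbkg no longer passed, and Birc3 and Nfkbid did. The same omission gave 15 higher and 4 lower in MHCIIhi, 4 higher (without Rela) and 15 lower in the RFP+ pair, and 6 higher and 16 lower (with Traf1) in the RFP- pair. Of the 4 ligand genes tested, 1 (Tnf) was lower in the RFP+ pair and 4 were lower in the RFP- pair, and 0 were higher in either. Tnfsf11 and Tnfsf14 among them rest on few reads. They had 1 to 6 and 0 to 4 reads per RFP- MHCIIlo library, against 12 to 20 and 11 to 23 in RFP- MHCIIhi. Of 3 other receptor genes, 1 was higher and 2 were lower in the RFP+ pair, and 1 was higher in the RFP- pair. Tnfrsf1a, a receptor for Tnf, was the higher one in both, by 0.34 (SE 0.09, adjusted p = 0.0032) in RFP+ and 1.53 (SE 0.09, adjusted p = 9.2e-13) in RFP- cells on the log2 scale. Of 4 kinase genes, 1 was higher and 1 lower in the RFP+ pair, and 1 was lower in the RFP- pair. Of the 7 adaptor and ligase genes, 6 were lower in RFP+ MHCIIlo than in RFP+ MHCIIhi, and 5 were lower and 1 higher in RFP- MHCIIlo than in RFP- MHCIIhi. Birc2 and Birc3, whose products mark the kinase of Map3k14 for destruction in resting cells, were among the lower ones (Birc3 log2 -0.89, SE 0.08, adjusted p = 5.1e-09 in RFP+ and -1.12, SE 0.08, adjusted p = 3.9e-11 in RFP- cells). Traf5, an adaptor of Cd40 and Ltbr signals, was the higher one, at 17.8 ± 3.32 CPM in RFP- MHCIIlo against 5.14 ± 0.221 CPM in RFP- MHCIIhi. Traf1, an adaptor and known NF-kB target, stood out in RFP+ MHCIIhi at 111 ± 13.2 CPM, against 44.9 ± 4.68 CPM in RFP- MHCIIhi (log2 1.31, SE 0.13, adjusted p = 9.6e-09).

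Inhibitors split in direction. Of 9 inhibitors and regulators, RFP+ MHCIIlo had 2 higher and 5 lower against RFP+ MHCIIhi, and RFP- MHCIIlo had 3 higher and 5 lower against RFP- MHCIIhi. Nfkbia, the inhibitor that holds canonical dimers in the cytoplasm, averaged 157 ± 36.1 CPM in RFP+ MHCIIlo, 112 ± 13.8 in RFP- MHCIIlo, 367 ± 41.6 in RFP+ MHCIIhi and 248 ± 35.8 in RFP- MHCIIhi, lower in MHCIIlo by 1.22 (SE 0.14) in RFP+ and 1.15 (SE 0.14) in RFP- cells on the log2 scale. Nfkbiz, a nuclear co-regulator, ran the other way, at 102 ± 4.98, 85.8 ± 7.43, 54.7 ± 2.09 and 22.9 ± 1.17 CPM in the same populations. It was 3.75-fold higher in RFP- MHCIIlo than in RFP- MHCIIhi (adjusted p = 1.4e-15). Tnfaip3, the deubiquitinase that dampens canonical signals, was higher in MHCIIlo by 0.58 (SE 0.10) in RFP+ and 1.00 (SE 0.10) in RFP- cells. The gene of the canonical subunit RelA, Rela, was also higher in RFP- MHCIIlo than in RFP- MHCIIhi (log2 0.57, SE 0.08, adjusted p = 1.8e-06), opposite to Rel.

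Of 11 genes listed as NF-kB targets, RFP+ MHCIIlo had 1 higher and 10 lower against RFP+ MHCIIhi (median log2 -1.89), and RFP- MHCIIlo had 1 higher and 9 lower against RFP- MHCIIhi (median -1.15). Ccl2, a chemokine gene, was at 4.33 ± 2.70 CPM in RFP+ MHCIIlo against 50.6 ± 4.98 CPM in RFP+ MHCIIhi, and at 4.70 ± 0.489 CPM in RFP- MHCIIlo against 20.7 ± 2.16 CPM in RFP- MHCIIhi. Icam1, an adhesion molecule gene, was lower in MHCIIlo by 1.89 (SE 0.10) in RFP+ and 1.07 (SE 0.10) in RFP- cells. The 1 gene of these 11 that was higher in both pairs was Tnfaip2 (0.83, SE 0.09, and 1.42, SE 0.09). Genes grouped above by another role are not among the 11, so the counts do not cover all NF-kB targets. Of those, Tnfaip3 and Nfkbiz were also higher in both pairs, and Nfkbia was lower in both. Among 6 genes listed for possible ties to these signals in medullary epithelium, 5 were tested: Aire, Fezf2, Cd80, Cd86 and Ciita. All 5 were lower in MHCIIlo in both pairs. The gates were set on MHC class II itself, so lower levels of genes tied to it are partly given by the sort. The count of 5 is therefore not a test of the signals. Aire averaged 50.7 ± 25.3 CPM in RFP+ MHCIIlo and 37.8 ± 23.4 in RFP- MHCIIlo, against 586 ± 32.4 in RFP+ MHCIIhi and 977 ± 56.0 in RFP- MHCIIhi. The counts with percentages of all genes given above (55.6% and 69.1%) are the background of these lists too.

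**Figure D5:**
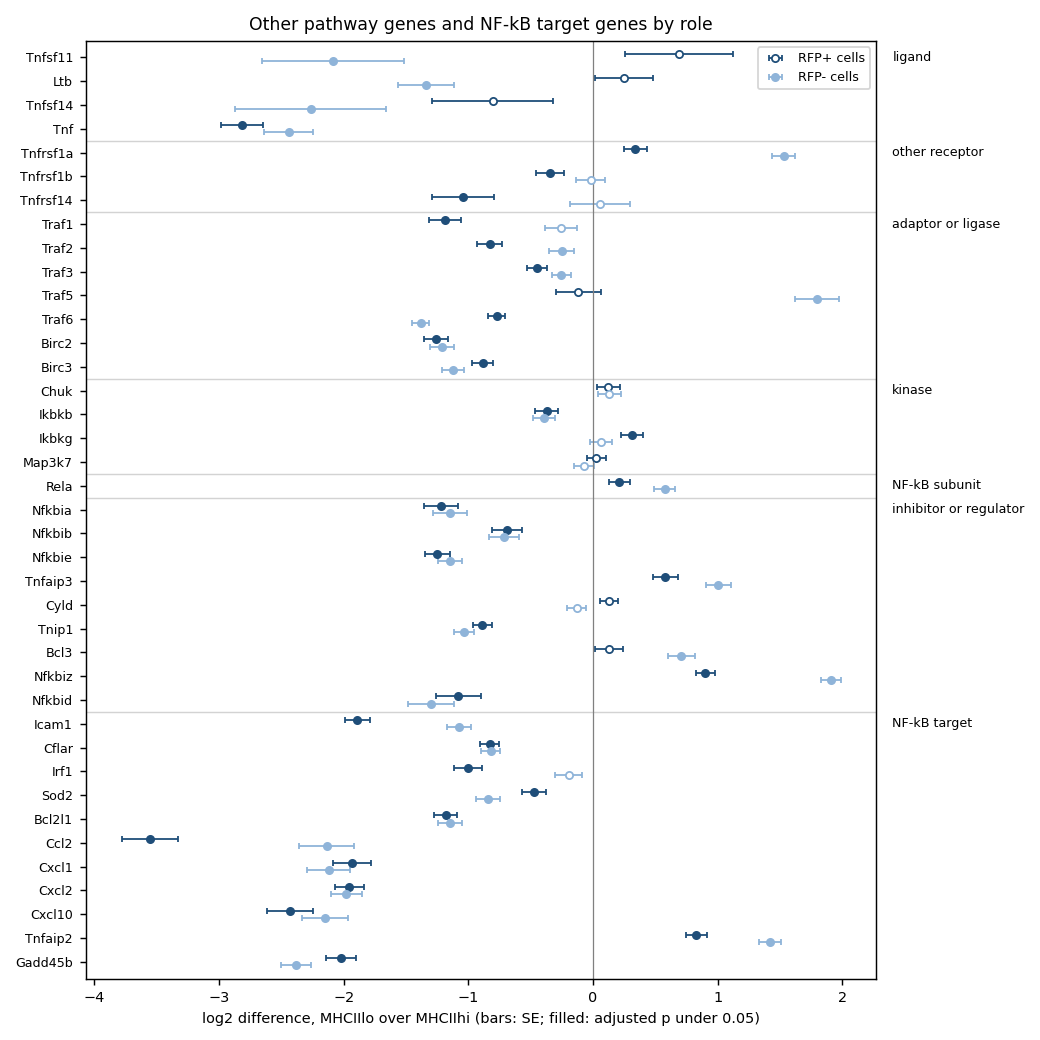
The log2 difference of MHCIIlo over MHCIIhi for the other pathway genes and the NF-kB target genes, grouped by role, in RFP+ cells (dark blue) and RFP- cells (light blue), with SE bars. Filled points have an adjusted p under 0.05. Points left of 0 are lower in MHCIIlo. Nfkbiz, Tnfaip3 and Tnfaip2 lie to the right of 0 in both, and most genes listed as targets to the left.

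The plot of pathway genes by role shows where RFP+ and RFP- cells part. Traf5 and Traf1 are examples: the log2 difference of MHCIIlo over MHCIIhi was -0.12 (SE 0.18) in RFP+ and 1.79 (SE 0.18) in RFP- cells for Traf5, and -1.19 (SE 0.13) and -0.26 (SE 0.13) for Traf1. The difference between these differences passed for both (-1.91, adjusted p = 2.7e-06, and -0.93, adjusted p = 3.4e-04). Among the members, Ltbr had 0.40 in RFP+ and 1.15 in RFP- cells.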

How the data were processed

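The deposited tables hold raw read counts per gene (Ensembl IDs), 1 table per library, which the authors made with STAR on GRCm38, per the submitters' processing notes, which also name DESeq2. For the counting tool, the annotation release and the use of strand, the answer is not given in the sources used here. Symbols and positions came from GENCODE M21: 42548 of 43432 IDs matched, and IDs without a symbol held 0.098% of reads. The 10 members and all gene lists were chosen with earlier results of these data known.

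Here 1 model with the 4 populations was fitted to all 16 libraries with edgeR 4.0.16 in R 4.3.3 (filterByExpr with a minimum count of 10 and total of 15, TMM normalisation, quasi-likelihood test, Benjamini-Hochberg adjustment over 19617 genes, threshold 0.05). Levels are CPM on TMM-scaled library totals. SD is over 4 libraries and intervals are 95%. Library totals had a median of 13279016 reads. Libraries of 1 population differed beyond counting noise (chi-square per degree of freedom 3.18 to 36.8 over 24 pairs), so none was merged. Per-kilobase levels divide by merged exon length, so orders between genes depend on the transcripts made, which were not tested. Genes with patterns like a member's were the 3 with the highest Pearson r of log2 CPM (prior count 2) over the 16 libraries. Pathway genes are given with values where their mean reached 10 CPM in some population, apart from Ltb and the read counts of Tnfsf11 and Tnfsf14.

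All 4 same-numbered pairs correlated over 0.1 in their deviations in RFP+ MHCIIlo against RFP- MHCIIlo (0.178 to 0.40 over 5000 genes). The numbers thus appear to pair those libraries. In each of the other 3 comparisons of RFP or gate, 3 of 4 pairs correlated over 0.1. Replicate 3 did not (-0.0337, 0.0384 and 0.0419). It did across the diagonals, at 0.243 in RFP+ MHCIIlo against RFP- MHCIIhi and 0.256 in RFP+ MHCIIhi against RFP- MHCIIlo. Replicate 4 fell short in the first of these (0.0217). Over all pairs of populations, the best match of a library bore its own number in 39 of 48 cases. The numbers thus appear to pair libraries across all 4 populations, which the sources used here do not state. The values reported for every comparison, RFP+ against RFP- MHCIIlo included, come from the fit without replicate numbers and so are unpaired. A fit with them (the replicate block) was run as an alternative. With it, 3 members were higher and 1 lower in RFP+ against RFP- MHCIIlo, as without it. The member call that the block changed was Cd40 in RFP+ against RFP- MHCIIhi, with values given at the end. Alternatives covered normalisation, filter, tool (DESeq2 1.42.0, limma-voom 3.58.1), the libraries fitted, the block and leaving out each library. The procedure was also run on simulated counts with a common spread for all genes, which is simpler than these libraries. Its outcome is not used as support here. No column was left unused. 1 marker gene is not reported here.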

Additional observations from a re-analysis of the deposited data

Results flagged for a closer look

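Among 40 groups of 4 libraries, 2 held a library far from the others, and chance gives about 1 in 20 such groups. Relb in RFP- MHCIIhi replicate 4 was at 103.4 CPM, with a gap of 0.849 of the range of its population. Nfkb1 in RFP- MHCIIlo replicate 4 was at 125.4 CPM, with a gap of 0.835 of the range.

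The difference of RFP+ over RFP- cells was not the same in the 2 gates for 4 of the 10 genes, by the interaction test in edgeR. Of all tested genes 34.1% passed the same test, so 4 is near the background share. As MHCIIlo minus MHCIIhi on the log2 scale, it was -0.751 for Ltbr (adjusted p = 8.6e-05), 0.397 for Tnfrsf11b (adjusted p = 0.0085), -0.504 for Map3k14 (adjusted p = 9.5e-04) and -0.416 for Nfkb1 (adjusted p = 0.010). The value for Nfkb1 did not pass without RFP+ MHCIIlo replicates 1 and 4 (-0.31, adjusted p = 0.053).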

How the results depend on the processing

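Of 50 differences over the 10 members, 30 were called, 28 of these were called in every alternative of 23 (22 for the interaction), and 0 called differences changed direction. The exceptions were Lta in RFP+ against RFP- MHCIIlo (1.5 with limma-voom, 1.08 without RFP+ MHCIIlo replicate 3) and the Nfkb1 interaction (-0.31 without RFP+ MHCIIlo replicates 1 and 4). The cause was not tested.

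Differences near 0 that were not called changed sign. Relb in RFP+ against RFP- MHCIIhi was -0.015 with RLE scaling and -0.015 with DESeq2. The interaction without a filter was -0.011 for Tnfrsf11a and -0.022 for Cd40. Ltbr in MHCIIlo was -0.0041 with only that pair fitted. Without RFP+ MHCIIlo replicates 1 and 4, Relb in MHCIIlo was 0.038, and the interaction was -0.046 for Tnfrsf11a, 0.11 for Nfkb2 and 0.025 for Relb. With each library left out in turn, RFP+ against RFP- MHCIIlo ran from -0.067 to 0.15 for Tnfrsf11a, -0.064 to 0.087 for Ltbr, -0.043 to 0.11 for Nfkb2 and -0.11 to 0.056 for Relb. In MHCIIhi it ran from -0.016 to 0.087 for Tnfrsf11a and -0.031 to 0.023 for Relb, and RFP- MHCIIlo against RFP- MHCIIhi from -0.10 to 0.021 for Nfkb1. The interaction ran from -0.11 to 0.10 for Tnfrsf11a, -0.22 to 0.35 for Cd40, -0.11 to 0.036 for Nfkb2, -0.12 to 0.045 for Relb and -0.31 to 0.85 for Lta.

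Same-numbered replicates correlated over 0.1 in 19 of 24 pairs. With the replicate block, 10223 genes were called in RFP+ against RFP- MHCIIlo, 9013 in MHCIIhi, 11067 in RFP+ MHCIIlo against RFP+ MHCIIhi, 13655 in the RFP- pair and 6926 for the interaction, and the 1 member call that it changed was Cd40 in MHCIIhi (-0.45, adjusted p = 0.027). Of 149 called differences of the other listed genes, an alternative set chosen after seeing the data, 131 were called in every alternative and 18 were lost in some. Depth limits Lta most, at 1 to 19 reads per MHCIIlo library.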
